A study of Mus musculus with 12 samples.

Results

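The 81 genes described here encode subunits of the mitochondrial respiratory chain and of ATP synthase, out of 18193 genes measured in mouse liver during hepatitis induced by concanavalin A (ConA), a plant lectin that activates T cells. They were chosen by name, as genes whose only platform symbol began with the Nduf, Uqcr, Cox or Atp5 root of a nuclear-encoded subunit or was one of Sdha, Sdhb, Sdhc and Sdhd. The names fit 164 probe sets, and each gene was read from its probe set with the highest mean signal over the 12 arrays. The genes divided into 33 of complex I, 4 of complex II, 8 of complex III, 19 of complex IV and 17 of complex V. Of these, 73 are used in most tissues and are called common subunits below, and 8 are relatives of complex IV subunits known from muscle, heart, lung, testis or hypoxic cells. Ndufa4 and Ndufa4l2 were counted with complex IV, and Cox7a2l, which promotes the joining of complexes and is not a core subunit, was kept there. Genes encoded by mitochondrial DNA were not covered by the names.

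Total RNA of whole liver from male Balb/c mice, 8 to 10 weeks old, was hybridised to Affymetrix mouse genome arrays. The control group (0 h, 3 arrays) is called untreated in the sample labels and given phosphate-buffered saline in the study's methods, and the other groups of 3 arrays each were sampled at 1 h, at 3 h or at 6 h, counted from the injection of 20 mg/kg ConA into the tail vein. Each array is labelled as a replicate and liver was taken from each mouse, but the labels do not state that every array was a different mouse, so the p-values measure the spread between these samples. Because 0 h was the only control, an effect of ConA and an effect of time of day cannot be told apart. In whole liver, fewer cells of a type and less RNA per cell cannot be told apart either.

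The respiratory chain sits in the inner mitochondrial membrane. Complex I takes electrons from NADH and complex II, which is also the succinate dehydrogenase of the citric acid cycle, takes them from succinate. Both pass them to ubiquinone, from which complex III hands them through cytochrome c to complex IV, where oxygen is reduced. Complexes I, III and IV pump protons, and complex V, ATP synthase, uses the returning protons to make ATP. Hepatocytes are rich in mitochondria and depend on this machinery for gluconeogenesis and urea synthesis.

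The deposited signals were linear, with a median per array of 13.6 to 20.4, and a floor of 3.04 (the 20th percentile of all values) was applied before taking log2. Of the 73 common subunits, 70 had a mean control signal of 200 or more, from 589 for Ndufs4 to 8882 for Uqcrb, and the dim ones were Ndufb1, Ndufb4 and Cox7c. The hybridisation control bioC separated 5 arrays (the 3 controls and 3 h replicates 2 and 3) from the other 7 by a gap of 1.17 on the log2 scale. The comparisons of 1 h and of 6 h with control therefore lay entirely across these sets, and the set and the time point cannot be told apart there, whereas 1 h and 6 h lay in the same set. The log2 ratio of the 3′ to the 5′ actin probe sets, a sign of RNA integrity, was 1.29 to 1.43 in the controls and 0.94 to 1.10 at 6 h. It was 1.09 to 1.30 at 1 h and 1.21 to 1.31 at 3 h. The same ratio for Gapdh overlapped between control and 6 h, at -0.077 to 0.046 and -0.079 to -0.020. It was -0.19 to -0.030 at 1 h and -0.021 to 0.27 at 3 h. All 8 hepatocyte markers measured were above the floor on all 12 arrays.

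At 1 h the common subunits lay close to control on the deposited scale, and 1 array stood above the rest. No subunit gene passed the test in either direction (limma, Benjamini-Hochberg adjusted p under 0.05 over all 18193 genes), compared with 1.49% of all genes higher and 0.154% lower. At an unadjusted p under 0.05, 3 were higher and 0 lower, compared with 8.68% and 2.47% of all genes. As deposited, the median log2 change was 0.075, and that of all genes was 0.077, a direction that turned to -0.030 after quantile normalization and to -0.052 when arrays were centred on equally bright genes. Scaled to all hybridisation controls, 70 of 81 were higher, with 34.4% of all genes, and the median log2 change was 0.55. The array of 1 h replicate 1 had the highest signal of all 12 for 67 of the 73 common subunits. The median SD of log2 signal between the arrays of a group was 0.17 at 1 h, compared with 0.079, 0.077 and 0.091 in the 0 h, 3 h and 6 h groups.

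**Figure D1:**
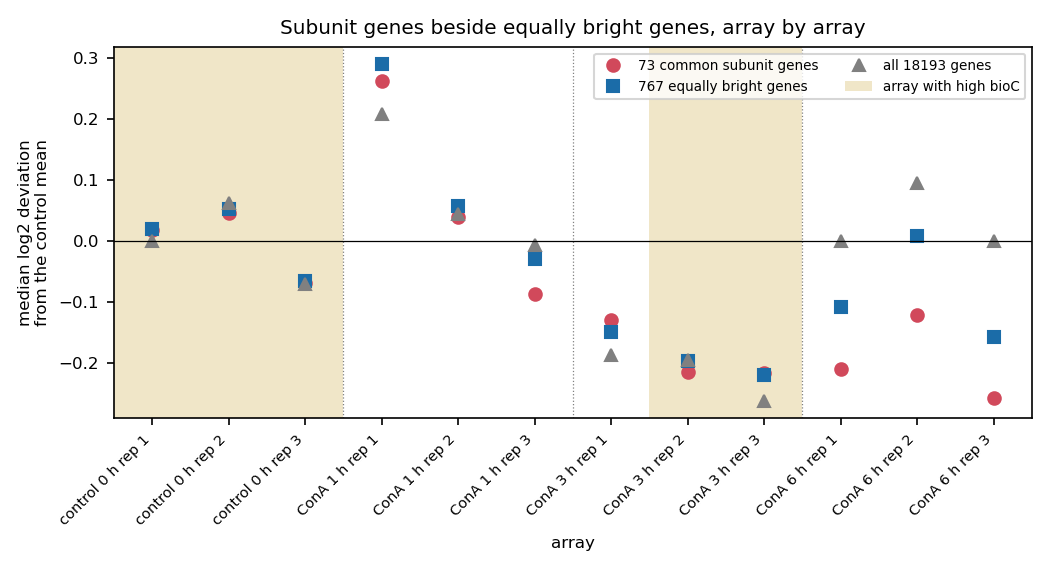
Median log2 difference from the control mean (vertical axis, deposited scale) on each of the 12 arrays (horizontal axis) for the 73 common subunits (circles), 767 equally bright genes (squares) and all genes (triangles), with arrays of high bioC shaded. At 6 h the subunits were at -0.21, -0.12 and -0.26 on the 3 arrays, below the equally bright genes at -0.11, 0.0090 and -0.16, and scaling to all hybridisation controls turned the 6 h median of the subunits to 0.25.

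At 3 h the subunits were lower together with the table as a whole. The median log2 change was -0.19 against -0.21 for all genes, and it turned to 0.048 when arrays were centred on their median and to 0.066 when they were scaled to all hybridisation controls. No subunit rose and 3 of 81 fell, compared with 5.17% of all genes higher and 14.8% lower. At an unadjusted p under 0.05, 0 were higher and 19 lower, compared with 7.50% and 25.5% of all genes. For 47 of 81 genes all 3 arrays lay below all 3 control arrays, as they did for 28.8% of all genes.

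Ndufs3, a core subunit that joins the electron input module of complex I to its membrane arm, read 1932, 1956 and 1836 in the controls and 1529, 1539.8 and 1474 at 3 h. The groups did not overlap, and the log2 change was -0.33 (SE 0.082, limma adjusted p = 0.021). Uqcrc1, a core protein of complex III, read 2239.8, 2587 and 2202 in the controls and 1869, 1952 and 1882 at 3 h, again without overlap, a log2 change of -0.30 (SE 0.088, limma adjusted p = 0.041). The third, Cox7c, was dim, with 25.8, 27.6 and 28.3 in the controls and 23.6, 19.7 and 17.9 at 3 h (log2 change -0.43, limma adjusted p = 0.035). None of the 3 was past the test at 6 h. This count was small and moved with single arrays: leaving out either control replicate 1, control replicate 2 or 3 h replicate 3 made it 0, and it was 1 without 3 h replicate 2, 5 without 1 h replicate 3 and 9 without 1 h replicate 1.

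At 6 h genes of complexes I, II, III and V fell, whereas none of complex IV passed the test. Of the 81 genes 13 fell and 0 rose, compared with 12.7% of all genes lower and 15.4% higher, and at an unadjusted p under 0.05 the numbers were 25 and 1, compared with 17.1% and 20.3% of all genes. The share of subunits that fell, 16%, was near that of all genes, and none changed by 2-fold or more, whereas 5.88% of all genes fell and 7.45% rose past the test by at least that much. The median log2 change of the 81 genes was -0.20 and that of all genes 0.019, but it turned to 0.25, with all genes at 0.40, when arrays were scaled to all hybridisation controls. The change was below 0 for 67 of the 81 genes and for 8390 of all 18193 genes. All 3 arrays lay below all 3 controls for 43 of the 81, as they did for 18.5% of all genes. The subunits were brighter than most genes, and such counts were not taken among equally bright genes, here or in the other comparisons. The genes past the test were 8 of 33 in complex I, 2 of 4 in complex II, 1 of 8 in complex III, 0 of 19 in complex IV and 2 of 17 in complex V, with medians of -0.24, -0.30, -0.15, -0.092 and -0.21.

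The 13 that fell were 21.6 to 39.1% lower than control. Each of them had all 3 arrays below all 3 controls, and each was below control at 3 h, by -0.13 to -0.29 on the log2 scale, as were 77 of all 81 subunit genes and 12242 of the 18193 genes. Leaving out control replicate 1 or 6 h replicate 1 made the number 6, leaving out control replicate 2 or 6 h replicate 3 made it 4, and leaving out 1 h replicate 1 made it 20. With the bioC set as a block it was 1, Ndufb10. That fit told set from time only through the 3 h arrays, replicate 1 against replicates 2 and 3. It therefore cannot decide what part the set had in the 13.

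**Figure D2:**
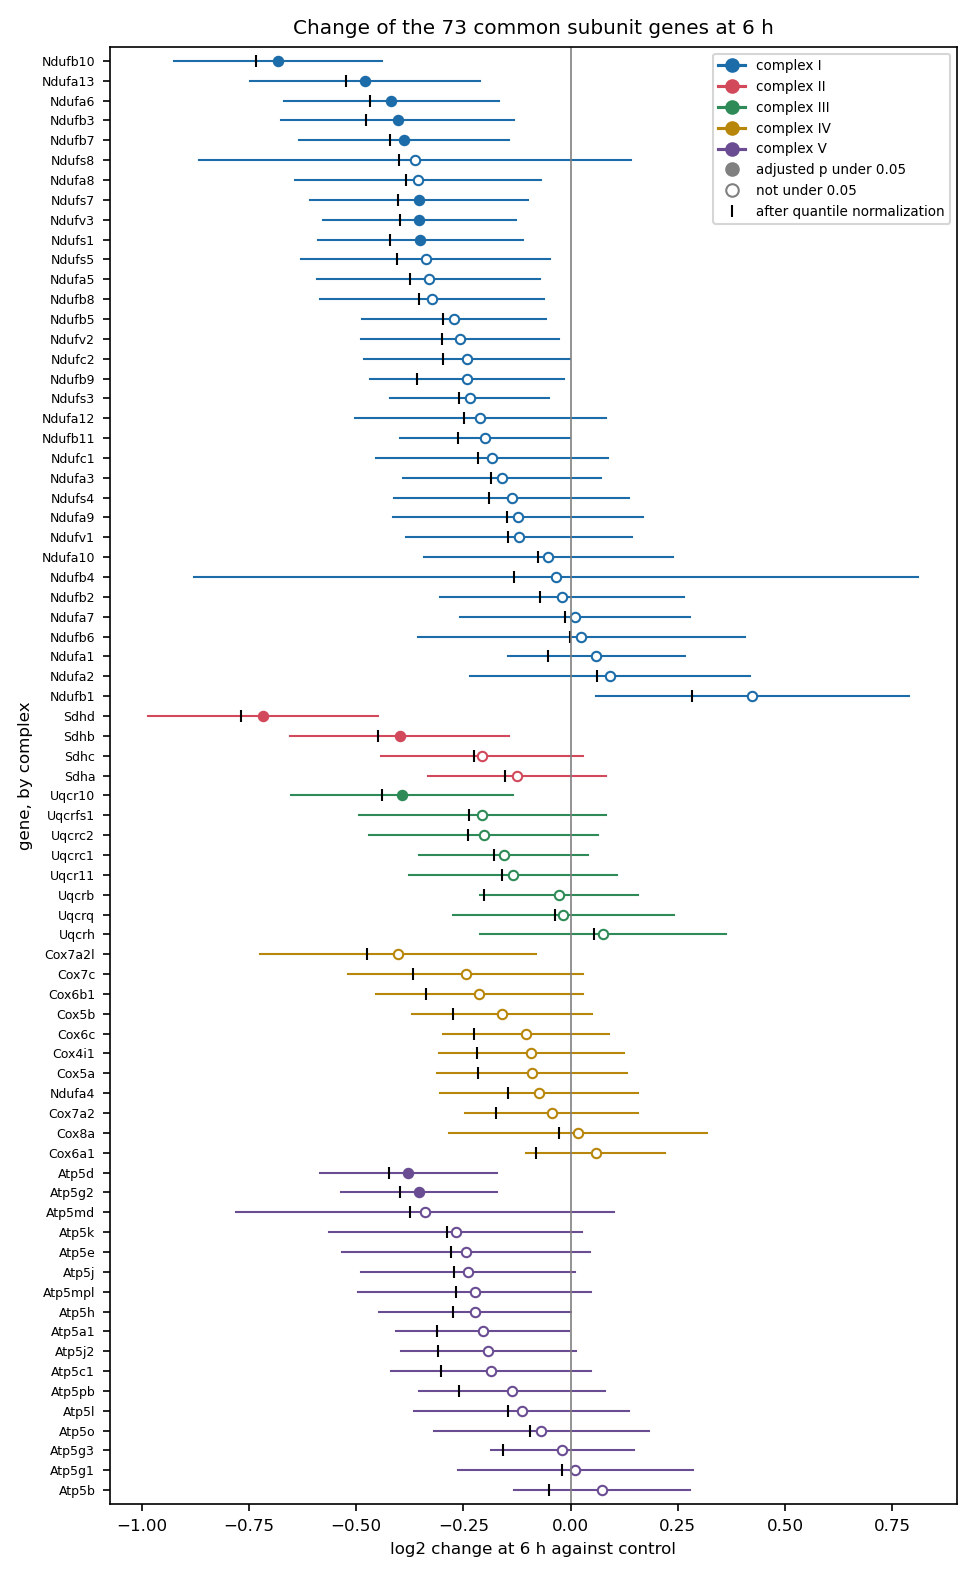
Log2 change at 6 h against control (horizontal axis) for the 73 common subunit genes (vertical axis, by complex), with lines for limma's 95% interval, filled points for the 13 genes past the test on the deposited scale and ticks for the change after quantile normalization. The largest falls were those of Sdhd at -0.72 and Ndufb10 at -0.68, and no gene of complex IV passed, while scaling to all hybridisation controls left none of the 81 past the test in the lower direction.

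In complex I, the largest fall was that of Ndufb10, an accessory subunit of the membrane arm. It read 1638, 1611 and 1572 in the controls and 1898, 1639 and 1499.7 at 1 h. By 3 h it read 1390.0, 1334 and 1219.9, and the 6 h arrays read 1009.8, 1089.6 and 911. The 3 arrays at 6 h were below all 9 others, and the 3 h arrays were below every control and 1 h array. The log2 change at 6 h was -0.68 (95% interval -0.93 to -0.44, limma adjusted p = 0.0013). Ndufa13, also known as a partner of the transcription factor STAT3, read 2993, 3552 and 3254 in the controls and 2447, 2491 and 2096 at 6 h, a log2 change of -0.48 (95% interval -0.75 to -0.21, limma adjusted p = 0.014). The other accessory subunits that fell were Ndufa6 (-0.42), Ndufb3 (-0.40), Ndufb7 (-0.39) and Ndufv3 (-0.35), with limma adjusted p from 0.02 to 0.033. Of the 6 core subunits measured, which carry the electron path, Ndufs1, the largest iron-sulphur subunit, and Ndufs7, which holds the last iron-sulphur cluster, fell by 0.35 each on the log2 scale. Ndufs1 went from 1114, 1189 and 1063 in the controls to 834, 964 and 844 at 6 h, and Ndufs7 from 1419, 1385 and 1386 to 1079.8, 1227 and 984. Both sets of arrays were separate from their controls. Ndufb1 was dim, with 60.9, 88.0 and 63.3 in the controls and 91.5, 104 and 85.6 at 6 h, and its change of 0.42 (limma adjusted p = 0.084) passed the test in the higher direction when arrays were centred on equally bright genes.

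Of the 4 subunits of complex II, Sdhd and Sdhb fell at 6 h, and Sdha and Sdhc did not pass the test. Sdhd, the small membrane anchor, read 1549, 1624 and 1469 in the controls and 1777, 1454 and 1332 at 1 h. By 3 h it read 1233, 1298 and 1292, and the 6 h arrays read 1048, 931 and 854. All 6 h arrays were below the 9 others, with a log2 change of -0.72 (95% interval -0.98 to -0.45, limma adjusted p = 0.0017), and Sdhd and Ndufb10 also fell between 3 h and 6 h on the deposited scale. Sdhb, the iron-sulphur subunit, read 3106, 3109 and 2830.1 in the controls and 2226, 2567 and 2086 at 6 h. It did not overlap with control either, and its log2 change was -0.40 (95% interval -0.66 to -0.14, limma adjusted p = 0.027). Sdha, the flavoprotein that oxidises succinate, read 2246, 2209 and 2012 in the controls and 1862, 2140.5 and 1930.1 at 6 h, and Sdhc, the large membrane anchor, went from 1675, 1941 and 1683 to 1479, 1636 and 1472. Sdha overlapped with control (-0.13, 95% interval -0.33 to 0.082, limma adjusted p = 0.38) and Sdhc did not, but neither passed the test (Sdhc -0.21, 95% interval -0.44 to 0.028, limma adjusted p = 0.19). Whether Sdhd differed from the others was not tested, and the interval of Sdhd lay below that of Sdha without overlap. Sdha turned with the scaling, to -0.26 (limma adjusted p = 0.023) on arrays centred on their median and to 0.33 (limma adjusted p = 0.037) on arrays scaled to all hybridisation controls.

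The promoters of Sdhd and Sdhb are shown because these are the complex II genes that fell and because motifs of factors known to drive respiratory genes lie close to their start. Each line holds the 150 bases before the transcription start in RefSeq's mouse genome GRCm38.p6, on the strand of the gene. The stretch of Sdhd is chr9:50603850-50603999 on the minus strand and that of Sdhb chr4:140961121-140961270 on the plus strand. Capitals mark the ETS motif CCGGAAG, bound by GABPA, which in Sdhd is read on the opposite strand, and the NRF1 motif GCATGCGC in Sdhb. A match to the motif of ERRA in Sdhd and one to the ETS motif in Sdhb lie outside these stretches.
Sdhd: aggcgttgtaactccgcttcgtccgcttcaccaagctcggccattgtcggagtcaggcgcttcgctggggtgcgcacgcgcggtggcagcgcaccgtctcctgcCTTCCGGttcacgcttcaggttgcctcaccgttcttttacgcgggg
Sdhb: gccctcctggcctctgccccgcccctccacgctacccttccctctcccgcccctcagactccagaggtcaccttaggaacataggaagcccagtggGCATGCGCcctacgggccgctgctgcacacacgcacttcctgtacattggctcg

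In complex III, Uqcr10, a small subunit, was the gene that fell. It read 1556, 1456 and 1345 in the controls and 1084, 1176 and 1055 at 6 h without overlap, a log2 change of -0.39 (95% interval -0.65 to -0.14, limma adjusted p = 0.029). Uqcrc1, lower at 3 h, read 2084, 2115 and 2091 at 6 h, with a log2 change of -0.16 from control (limma adjusted p = 0.24). Uqcrb, a small subunit, had a change of -0.027 (95% interval -0.21 to 0.16).

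In complex IV, 0 of 19 genes, 11 of them common, passed at 6 h, and 1 was lower and 0 higher at an unadjusted p under 0.05. Of all genes 12.7% were lower at adjusted p and 17.1% at unadjusted p. Cox7a2l had a change of -0.40 (limma adjusted p = 0.065), and its second probe set was lower past the test in a fit over all probe sets. Cox6a1, the liver form of a regulatory subunit, read 6379.8, 6791 and 6634 in the controls and 6841, 6799 and 6977 at 6 h. It was the only subunit gene of the 81 whose 6 h arrays all lay above the controls, by 0.058 (95% interval -0.10 to 0.22). Cox4i1, the common form of the largest nuclear-encoded subunit, had a change of -0.092 (95% interval -0.31 to 0.12) and Cox8a, the liver form of the smallest subunit, by 0.018 (95% interval -0.28 to 0.32). Apart from Cox8c, the isoforms of other tissues stayed dim: Cox7b2, of testis, was at the floor on all 12 arrays, and Cox4i2, of lung, read at most 17.4. Cox6a2 and Cox7a1, of heart and muscle, had highest signals of 35.7 and 46.1, Cox6b2, of testis, 16.5, and Cox8c, also of testis, ranged from 76.8 to 173. Ndufa4l2, known from hypoxic cells, read 23.8, 42.0 and 25.2 in the controls and 16.9, 3.25 and 19.1 at 6 h, and its change did not pass (limma adjusted p = 0.23). Cox8b, of heart and muscle, read 11.1, 16.6 and 7.04 at 1 h and 2.30, 5.68 and 1.37 at 6 h, where 2 arrays were under the floor, and it was lower at 6 h than at 1 h by a fitted -1.54 (limma adjusted p = 0.022), which depends on the floor. The 6 muscle markers, summed, read 15.1 to 119 over the arrays and none passed at any time point.

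ATP synthase had 2 genes that fell at 6 h. Atp5d, in the central stalk of the catalytic F1 part, read 2943, 3179 and 2947 in the controls and 2412, 2402 and 2167 at 6 h, without overlap, a log2 change of -0.38 (95% interval -0.58 to -0.17, limma adjusted p = 0.013). The other was a gene of the c subunit, the protein that forms the rotating ring of the membrane part. In mammals 3 genes, Atp5g1, Atp5g2 and Atp5g3, encode the same mature c subunit with different import sequences. Atp5g2 read 1583, 1665 and 1589 in the controls, then 1366, 1329.7 and 1361 by 3 h and 1259, 1323 and 1206 by 6 h, with every 3 h and 6 h array below every control. Its log2 change at 6 h was -0.35 (95% interval -0.53 to -0.17, limma adjusted p = 0.009). Atp5g1 read 2041, 2033 and 1989.8 in the controls and 2032, 2244 and 1851 at 6 h and overlapped with them, with a change of 0.011 (95% interval -0.26 to 0.28). Atp5g3 read 5848, 5982 and 5758 in the controls and 5522, 6114 and 5725 at 6 h, also with overlap, a change of -0.02 (95% interval -0.19 to 0.15). The intervals of Atp5g1 and Atp5g3 did not reach the estimate for Atp5g2, but the difference between the genes was not tested. A second, dim probe set of Atp5g2 had a change of 0.96, in the other direction, and did not pass.

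The promoters of the 3 genes of the c subunit are shown because the genes encode one mature protein and because 1 of the 3 genes passed the test at 6 h. The 150 bases before each start are at chr11:96075632-96075781 on the minus strand, chr15:102671048-102671197 on the minus strand and chr2:73911327-73911476 on the minus strand (GRCm38.p6, RefSeq). Capitals mark the NRF1 motif in Atp5g2, where matches on both strands overlap, and in Atp5g3 the motif TCAAGGTCA of ERRA, read on the opposite strand. In Atp5g1 these letters hold none of the motifs searched.
Atp5g1: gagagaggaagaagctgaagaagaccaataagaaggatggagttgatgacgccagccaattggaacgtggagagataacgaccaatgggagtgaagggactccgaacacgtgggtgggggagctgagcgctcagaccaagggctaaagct
Atp5g2: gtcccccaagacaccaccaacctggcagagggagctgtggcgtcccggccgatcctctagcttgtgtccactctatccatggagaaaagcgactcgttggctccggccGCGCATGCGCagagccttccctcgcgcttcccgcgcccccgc
Atp5g3: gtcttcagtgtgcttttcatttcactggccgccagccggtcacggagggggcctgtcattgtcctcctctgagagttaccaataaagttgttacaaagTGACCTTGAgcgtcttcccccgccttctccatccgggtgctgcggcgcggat

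**Figure D3:**
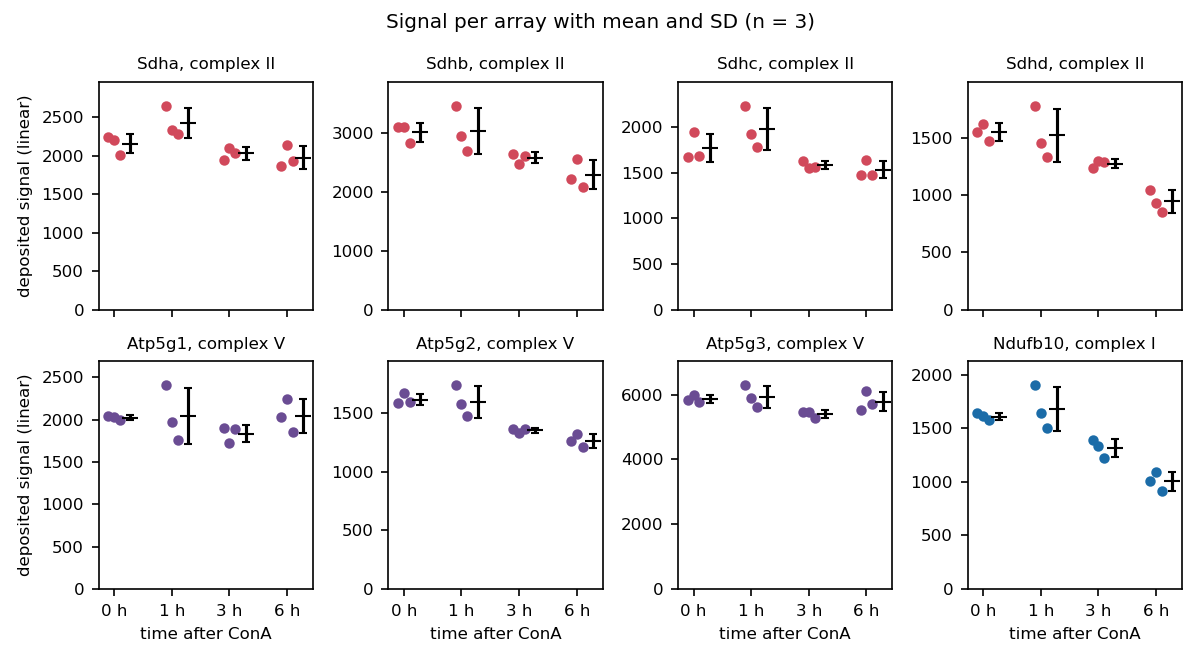
Deposited signal (vertical axis, linear) by time point (horizontal axis) for the 4 genes of complex II, the 3 of the c subunit and Ndufb10, with 1 point per array and the mean and SD of 3 arrays beside them. Sdhd and Ndufb10 at 6 h lay below all 9 other arrays, whereas Atp5g1 and Atp5g3 at 6 h overlapped with control. The signals are as deposited, and scaling to all hybridisation controls moved Sdhb, Uqcr10, Atp5d and Atp5g2 to changes of 0.052 to 0.097.

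Of the 81 genes, 48 had another probe set, and 37 of these had a mean signal of 200 or more. At 6 h 36 of the 37 were below 0. In a fit over all probe sets 2 of them were lower past the test (Cox7a2l and Ndufa12) and 0 were higher. Shares over all probe sets were not computed. Of all genes, at 1 probe set each, 8390 of 18193 were below 0, with 12.7% lower and 15.4% higher past the test. The 767 equally bright genes had medians of -0.11, 0.0090 and -0.16 on the 6 h arrays. The second probe set of Sdhd had a change of -0.35 (limma adjusted p = 0.31) and that of Atp5d one of -0.38 (limma adjusted p = 0.059). They lay on the same side as the first probe sets but did not pass. The probe sets read for Ndufa13 and Atp5d have the suffix s, which the maker gives to sets that match several transcripts.

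The number that passed at 6 h turned on how the arrays were scaled, so each scaling was tried. After quantile normalization 45 genes were lower (17.8% of all genes), and 46 after centring on each array's median (17.8% of all genes). Centring on the equally bright genes gave 25 (13.5% of all genes), and scaling to the controls bioD and CreX gave 6 (11.1% of all genes). All 13 genes that fell as deposited also passed under the first 3 of these scalings, and Atp5g2, Ndufa13, Ndufb10, Ndufb3, Sdhd and Uqcr10 passed under all 4. Scaling to all hybridisation controls, which include bioC, gave 0 lower and 16 higher, with 29.6% of all genes higher. Centred on equally bright genes, 16 were lower in complex I, 2 in complex II, 1 in complex III, 1 in complex IV and 5 in complex V. After quantile normalization the numbers were 19, 3, 4, 8 and 11. Of the 11 common genes of complex IV, 0 were lower as deposited, 1 centred on equally bright genes, 4 centred on the array median and 8 after quantile normalization, so the position of complex IV among the complexes depended on the scaling. Uqcrb, Cox6c and Cox7a2 were lower after quantile normalization (-0.20, -0.22 and -0.17) and higher on arrays scaled to all hybridisation controls (0.42, 0.35 and 0.41), past the test both times.

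**Figure D4:**
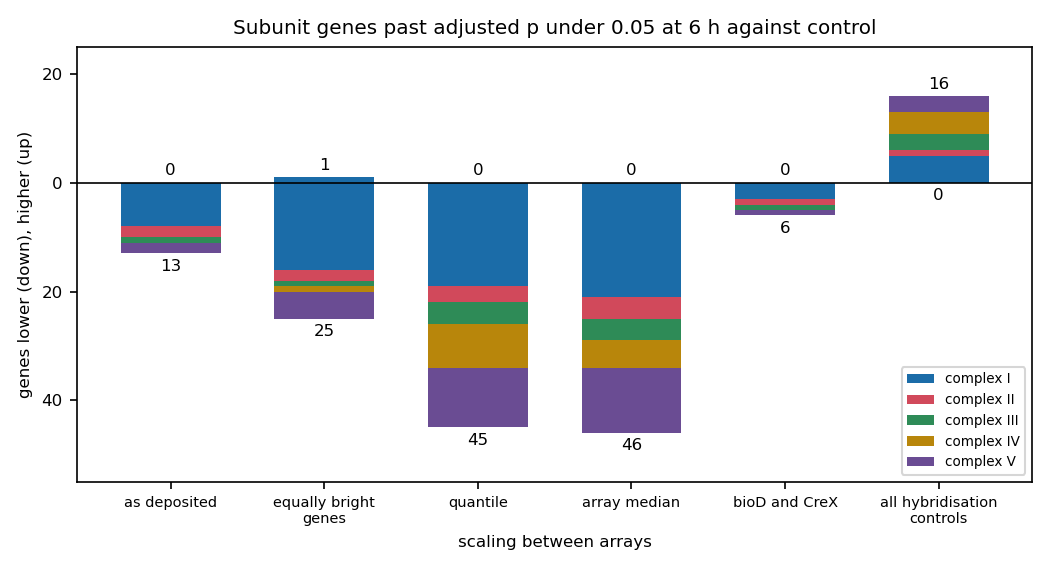
Number of subunit genes lower or higher at 6 h against control past the limma test (adjusted p under 0.05), under each scaling of the arrays (horizontal axis), as bars down for lower and up for higher (vertical axis), split by complex. The number lower was 13 as deposited, 45 after quantile normalization, 46 centred on the median, 25 centred on equally bright genes, 6 scaled to bioD and CreX and 0 scaled to all hybridisation controls, where 16 were higher.

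The comparison of 6 h with 1 h set the means of 2 groups of the same bioC set against each other, without the control mean. Its p-values still used the spread of all 12 arrays, controls included. Here 25 of 81 subunit genes were lower and 0 higher, compared with 14.2% and 10.9% of all genes, and at an unadjusted p under 0.05 the numbers were 44 and 1, compared with 19.5% and 15.7%. They were 12 of complex I, 4 of 4 of complex II, 1 of complex III, 4 of complex IV and 4 of complex V. Of the 13 that fell against control 12 were among them, all but Ndufs1, but the comparisons share the 6 h arrays. All 3 arrays at 6 h lay below all 3 at 1 h for 43 genes and for 20.5% of all genes. After quantile normalization 40 were lower (15.7% of all genes). The median change was -0.26, against -0.011 for all genes. Fitted on the 7 arrays of the low bioC set alone, 7 were lower: Atp5d, Cox7c, Ndufa13, Ndufa6, Ndufb10, Sdhd and Uqcr10. The share of all genes in that smaller fit is not given here, so its number cannot be set against all genes. In the main fit the 25 became 12 without 1 h replicate 1, 16 without 1 h replicate 2, 10 without 6 h replicate 1 and 8 without 6 h replicate 3.

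Between 1 h and 3 h 9 subunits fell and 0 rose, compared with 19.9% and 3.09% of all genes. At an unadjusted p under 0.05, 53 of 81 were lower and 0 higher, compared with 32.2% and 4.58% of all genes, and all 3 arrays at 3 h lay below all 3 at 1 h for 50 of 81 subunit genes and 34.0% of all genes. The 9 were Ndufs3, Ndufa6, Ndufa7, Ndufb8, Ndufb9, Ndufb10, Cox7c, Cox8b and Cox7a2l. The number was 2 without 1 h replicate 1 or 3 h replicate 3, 4 without 3 h replicate 2, 5 without control replicate 1, 1 h replicate 2, 3 h replicate 1 or 6 h replicate 1, and 33 without 1 h replicate 3. From 3 h to 6 h 2 fell (Sdhd and Ndufb10) and 0 rose, compared with 3.86% and 18.8% of all genes, and at an unadjusted p under 0.05 the numbers were 4 and 2, compared with 6.62% and 28.0%. This count depended on the scaling, with 18 lower after quantile normalization (10.3% of all genes), 50 centred on array medians (12.5%) and 10 centred on equally bright genes (6.31%), and with 0 lower and 2 higher when scaled to all hybridisation controls. As deposited, the number that fell was 0 without 3 h replicate 1, 3 h replicate 2 or 6 h replicate 3, and 1 without 3 h replicate 3, 6 h replicate 1 or 6 h replicate 2, and 1 rose without 1 h replicate 1 or 1 h replicate 3. Over all time points 22 of 81 genes passed the F test, compared with 38.0% of all genes: 14 of complex I, 2 of complex II, 1 of complex III, 3 of complex IV and 2 of complex V. That number was 14 without control replicate 2, 13 without control replicate 1, 12 without 1 h replicate 2, 13 without 3 h replicate 2, 12 without 3 h replicate 3, 9 without 6 h replicate 1 and 7 without 6 h replicate 3.

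**Figure D5:**
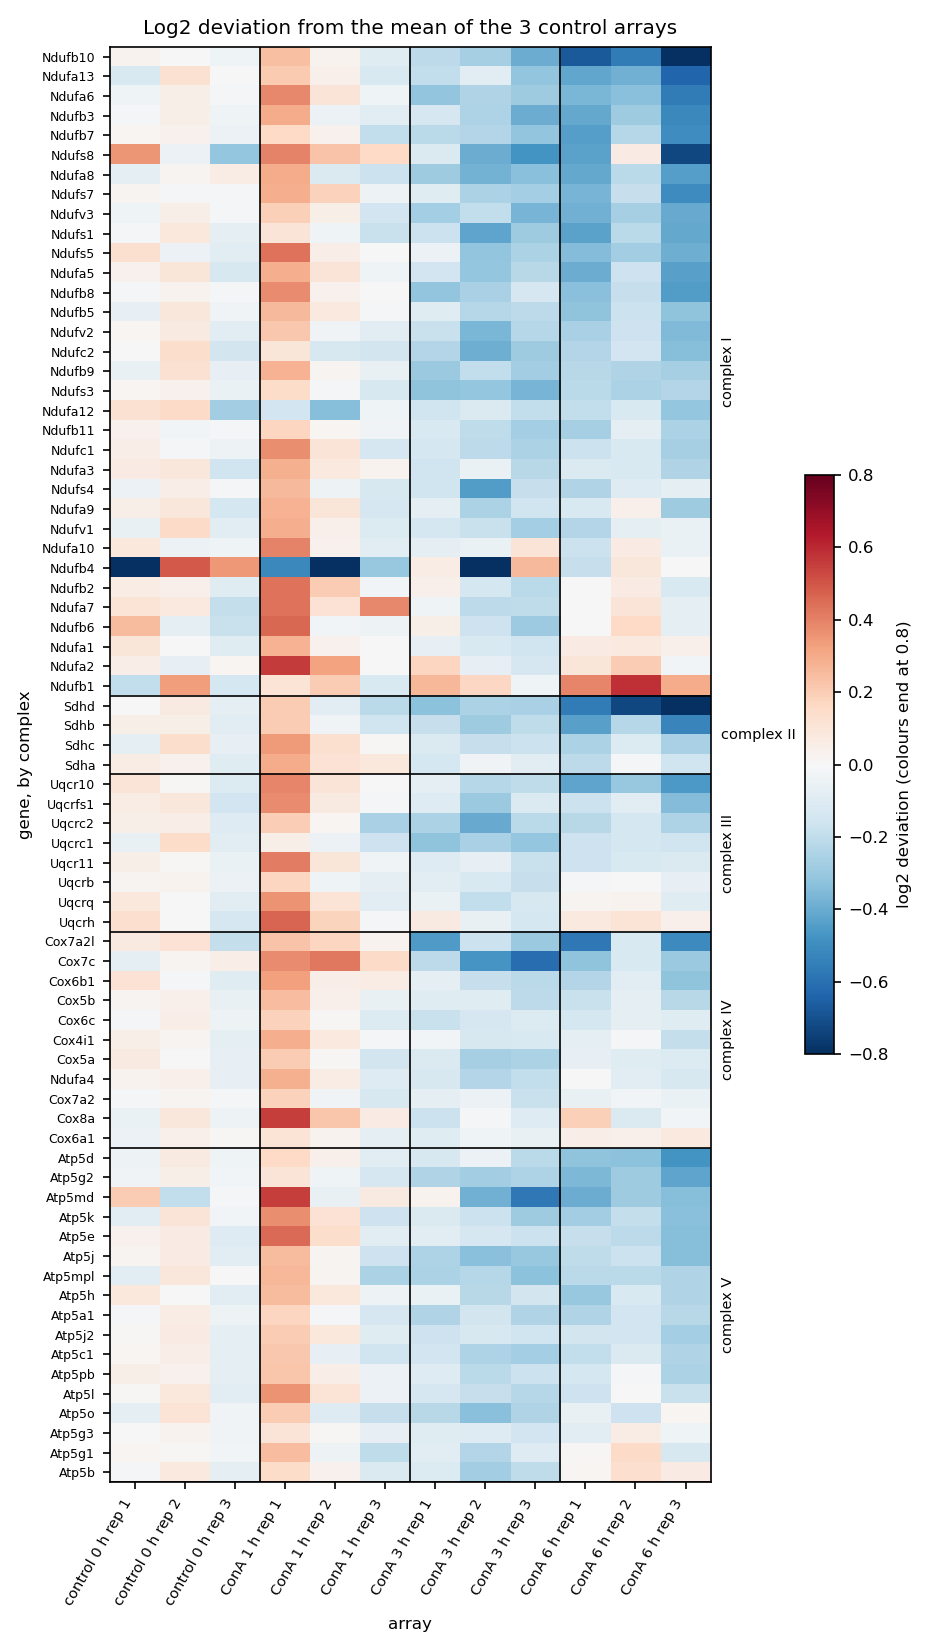
Log2 difference from the control mean in colour for the 73 common subunit genes (vertical axis, by complex) on each of the 12 arrays (horizontal axis, by time point), on the deposited scale, red for higher and blue for lower. The array of 1 h replicate 1 was the highest of the 12 for 67 of 73 common subunits, and 37 of them had their lowest signal at 6 h and 33 at 3 h, an order that rescaling moved.

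Among genes that build and feed the chain, the largest falls exceeded those of the subunits. The numbers in each list stand beside 12.7% of all genes lower and 15.4% higher at 6 h, and 14.8% lower and 5.17% higher at 3 h. Of 43 assembly factors, which fold and join the complexes, 11 fell and 0 rose at 6 h (median -0.24), and 8 fell and 1 rose at 3 h. Coa6, which helps bring copper to complex IV, went from 475 ± 45.8 (SD, n = 3) to 233 ± 27.0 (log2 change -1.03, limma adjusted p = 0.00043). Ndufaf3, an assembly factor of complex I, went from 249 ± 8.37 to 128 ± 13.3 (log2 change -0.97, limma adjusted p = 0.00029). Among 18 genes of ubiquinone synthesis, cytochrome c and feeding enzymes, 6 fell and 0 rose at 6 h (median -0.32), and 2 fell at 3 h. Coq8a, needed for ubiquinone synthesis, went from 744 ± 152 to 129.9 ± 28.0 (log2 change -2.52), and Coq10a, a ubiquinone-binding protein, changed by -1.34. Of 12 citric acid cycle genes without the Sdh genes, 2 fell at 6 h (median -0.24) and 0 at 3 h. They were Idh3a, a subunit of isocitrate dehydrogenase (mean signal 687 in the controls and 343 at 6 h), and Dlst, a subunit of oxoglutarate dehydrogenase (log2 change -0.35). Of 11 genes for ATP export, uncoupling and ATP synthase inhibition, 2 fell at 6 h (median -0.15) and 2 at 3 h, and those of 6 h were the outer membrane channel Vdac1 (-0.64) and the adenine nucleotide carrier Slc25a5 (-0.37). These numbers are as deposited and moved with the scaling. After quantile normalization 24, 10, 7 and 4 genes were lower at 6 h in the order of these lists, with 17.8% of all genes lower. At 3 h they were 3, 1, 0 and 2.

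The regulators of these genes held the largest changes and moved in both directions. Of 16 transcriptional regulators 5 rose and 6 fell at 6 h (median 0.16), and 3 rose and 5 fell at 3 h. Ppargc1a, the coactivator known to drive mitochondrial genes, had mean signals of 206 in the controls, 311 at 1 h, 57.6 at 3 h and 20.5 at 6 h, a log2 change at 6 h of -3.27 (SE 0.28, limma adjusted p = 3.8e-05). Its relative Ppargc1b had means of 346, 328, 22.4 and 34.4 (log2 change at 6 h -3.29, SE 0.23, limma adjusted p = 1.6e-05). The third member of that family, Pprc1, rose by 2.06 and Nrf1, which binds the NRF1 motif, by 1.08. Of 17 genes for maintenance and transcription of mitochondrial DNA, 4 fell and 1 rose at 6 h (median -0.09), and 8 fell at 3 h. Polg2, a subunit of the mitochondrial DNA polymerase, changed by -2.04 and Mterf2, which binds mitochondrial DNA, by -1.61, whereas Tfb1m, a methyltransferase of mitochondrial ribosomal RNA, rose by 0.72. Of 10 hypoxia and mitophagy genes 3 fell and 1 rose at 6 h (median -0.32), and 3 fell at 3 h. Pdk1, which blocks pyruvate entry, changed by -1.02, the hypoxia factor Epas1 by -0.84 and Hif1a by 1.06. Beside these medians, that of all genes at 6 h was 0.019. After quantile normalization 5 regulators rose and 6 fell at 6 h. Among the mitochondrial DNA genes 1 rose and 7 fell, and among the hypoxia and mitophagy genes 1 rose and 4 fell.

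Markers of other cell types moved at 6 h, and some had moved before. All 7 neutrophil markers rose at 6 h, with summed signals of 95 to 127 in the controls and 1588 to 2512 at 6 h. Of 5 stellate cell markers 4 fell, with sums of 1425 to 2131 and 709.9 to 727, and of 7 Kupffer cell and monocyte markers 4 fell and 1 rose, with sums of 972 to 1260.0 and 460.2 to 589.6. Of 6 endothelial markers 2 rose and 2 fell, of 6 T cell markers 2 rose, of 5 NK cell markers 2 rose, and of 4 cholangiocyte markers 1 rose. None of 3 B cell and 2 erythroid markers passed at 6 h. The 8 hepatocyte markers summed to 57045 to 60864 in the controls and 57234 to 62527 at 6 h, and 1 of them, Hnf4a, rose. The part of these cell types in the fall of the subunits was not tested.

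The promoter table held 66 of the 81 genes, each with 300 bases, 250 before the start and 50 after it, and was searched on both strands for the motifs of factors known from respiratory genes. The NRF1 motif GCATGCGC was in 13.6% of the subunit genes' promoters and in 2.80% of 27025 promoters, 1 per gene. The ETS motif CCGGAAG was in 24.2% and 9.12%, the YY1 motif AAGATGGCG in 7.58% and 1.49%, and the ERRA motif TCAAGGTCA in 3.03% and 0.407%. Any of them was in 26 of the 66, 39.4%, and in 12.9% of all. Matches to different motifs overlapped in 0 genes, and matches of 1 motif on both strands in 4. Among the genes that fell at 6 h, 6 of the 12 with a promoter in the table held a motif (Atp5g2, Ndufa6, Ndufb7, Ndufs7, Sdhb and Sdhd), and among the other common subunits 20 of 50 did. The 27025 promoters were not matched to those of the subunit genes in base composition or in expression in liver. The shares are descriptions of sequence, and no binding was measured.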

How the data were processed

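Liver RNA was measured on 12 arrays, 3 per time point. The deposited table holds linear intensities, which the labels credit to MAS5 version 5.0 and the study's methods to RMA. The sorted values differed between arrays, so they were read as MAS5-like intensities and kept unscaled. The subunit genes, complexes, lists and alternatives were chosen with earlier results of these data known. Values below the floor (3.04) were raised to it, log2 was taken and 64 control probe sets were left out. Probe sets with several symbols were not used, which left out 7 genes of matching name, Ndufa11 and Ndufs6 among them.

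Group means were fitted over the 12 arrays with limma 3.58.1 in R 4.3.3, without an intensity trend. P-values were adjusted by Benjamini-Hochberg over 18193 genes in each contrast, and 95% intervals are unadjusted. Genes were named as the 2 largest changes past the test per complex and time point, the genes of complex II and of the c subunit, tissue isoforms beside their liver forms, genes with opposite calls under different scalings and the 2 largest changes per direction in a pathway list. Ndufs1, Ndufs7, Ndufb1 and any other genes named were chosen after their values were seen. Equally bright genes were 767 genes of like mean signal. Simulated data for 6 h against control held 18193 genes, of which 200 were changed. There 10% of changes of 0.5 and 74% of changes of 1 on the log2 scale were recovered. In the real comparison 2312 genes were lower and 2808 higher past the test, so these rates do not give the share missed here. Changes of the size seen here could still be missed. Promoter searches used Python 3.11.15. The number of arrays limits the precision. Replicate numbers did not pair the arrays.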

Additional observations from a re-analysis of the deposited data

How the results depend on the processing

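Numbers are of the 81 subunit genes past the test. Shares of all genes are given above for some of these settings only. Where no share is given, a number does not tell the subunits from the table as a whole. Scaling to all hybridisation controls moved all genes, with 34.4% of them higher at 1 h and 29.6% at 6 h. As deposited none was higher in any comparison, and 0 were lower at 1 h, 3 at 3 h, 13 at 6 h, 9 from 1 h to 3 h, 2 from 3 h to 6 h and 25 from 1 h to 6 h, with 22 past the F test over time. Quantile normalization gave 1 lower at 3 h, 45 at 6 h, 1 from 1 h to 3 h, 18 from 3 h to 6 h, 40 from 1 h to 6 h and 36 in the F test, with medians of -0.030 at 1 h and -0.088 at 3 h. Centring on array medians gave 0, 46, 2, 50, 46 and 46, with medians of 0.048 at 3 h and -0.33 at 6 h. Scaling to all hybridisation controls gave 70 higher at 1 h, 16 at 6 h and 2 from 3 h to 6 h, 0 lower at 3 h, at 6 h and from 3 h to 6 h, 67 lower from 1 h to 3 h, 14 from 1 h to 6 h and 66 in the F test, with medians of 0.55 (1 h), 0.066 (3 h) and 0.25 (6 h). At 6 h it turned Sdha (0.33) and Atp5g3 (0.43) and brought Sdhb (0.052), Uqcr10 (0.058), Atp5d (0.073), Atp5g2 (0.097), Ndufs1 (0.10), Ndufs7 (0.097), Ndufv3 (0.098), Ndufa6 (0.033), Ndufb3 (0.048) and Ndufb7 (0.062) above 0. Log2 of signal + 1 without a floor gave 0 lower at 3 h, 6 at 6 h, 4 from 1 h to 3 h, 0 from 3 h to 6 h, 14 from 1 h to 6 h and 7 in the F test. An intensity trend gave 5 lower at 3 h, 23 from 1 h to 3 h and 1 higher from 3 h to 6 h. Genes brighter than the median gave 1 higher at 6 h and 18 lower from 1 h to 3 h, and a fit over all probe sets 5 lower from 1 h to 3 h. Second probe sets gave 1 lower at 1 h, 1 higher at 6 h and 1 lower from 3 h to 6 h, and moved Atp5g2 to 0.96.

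The following settings were chosen after seeing the data. Centring on equally bright genes gave 0 lower at 3 h, 25 lower and 1 higher at 6 h, 2 lower from 1 h to 3 h, 10 from 3 h to 6 h and 2 higher from 1 h to 6 h, with medians of -0.052 at 1 h and -0.067 at 3 h. BioD and CreX gave 0 lower at 3 h, 6 at 6 h, 2 from 1 h to 3 h and 9 in the F test, with a median of -0.085 at 3 h. The bioC set as a block, told from time only through the 3 h arrays, gave 1 lower at 6 h, 0 from 1 h to 3 h and 0 from 3 h to 6 h. Arrays of high bioC alone gave 1 lower at 3 h, and those of low bioC 0 from 1 h to 3 h, 0 from 3 h to 6 h and 7 from 1 h to 6 h. The cause of these differences was not tested.

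Leaving out each array in turn gave 0 to 0 genes higher and 0 to 0 lower at 1 h. It gave 0 to 0 and 0 to 9 for 3 h, 0 to 1 and 4 to 20 for 6 h, 0 to 0 and 2 to 33 from 1 h to 3 h, 0 to 1 and 0 to 2 from 3 h to 6 h, 0 to 1 and 8 to 37 from 1 h to 6 h, and 7 to 32 in the F test. The 1 h median ran from -0.022 to 0.15, and the 3 h and 6 h medians each ran from -0.23 to -0.16. A fit with the replicate number as a block gave 16 lower and 1 higher at 6 h, 14 lower from 1 h to 3 h, 27 lower from 1 h to 6 h and 19 in the F test. Deviations of arrays with the same number correlated at -0.0047 to 0.043 and those with other numbers at -0.055 to 0.033, so the numbers were not taken as pairing. Low signal limits the tissue isoforms other than Cox8c, although 4 of the 8 were at the floor on no array.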
